A study of Capra hircus with 12 samples.

Results

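RRP1, RRP1B, RRP7A, RRP8, RRP9, RRP12, RRP15 and RRP36 are the 8 goat genes whose symbols begin with RRP, for ribosomal RNA processing. They were taken by symbol from a table of 20326 genes, and all 8 were among the 16095 genes that were tested, those that reached 1 or more in 2 or more libraries. They were chosen with their values in view, because 7 of them were low in the resting follicle and RRP8 was not, so the contrast of telogen with the other samples is described here without a test for them. The material was RNA of secondary hair follicles, the small follicles that make cashmere, from Capra hircus of 1.5 years, with no treatment named. Libraries from May and September represent anagen, in which hair grows. Those from November and December represent catagen, in which the follicle regresses, and those from February and March represent telogen, in which it rests. A female and a male library were made for each of the 6 months, which gives 4 libraries per stage and 12 in all. It is not given whether animals recur between months, and p-values measure only the spread between these libraries.

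A ribosome is built in the nucleolus from a long precursor RNA that RNA polymerase I transcribes. Around it assemble the small subunit processome, which holds the U3 small nucleolar RNA and makes the early cleavages, and a separate set of factors that mature the large subunit. Names of the form Rrp come from yeast genetics and group proteins by a defect in this processing, not by sequence, so the family is one of function. In growing hair follicles the matrix cells divide fast and make much keratin, which calls for many ribosomes.

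The 12 libraries had sums of deposited values between 904623 and 1127797. The authors headed the values TPM, a level per transcript length scaled to a fixed total, but the sums are unequal, so the values had been rescaled between libraries. Read depth is therefore unknown, and in bulk tissue fewer cells of a type and less RNA per cell cannot be told apart. The telogen libraries stood apart in other ways: transcripts of the mitochondrial genome took 4.63% to 11.8% of the signal in telogen and 1.53% to 3.51% in the other 8 libraries, and ribosomal proteins took 12.5% to 17.6% against 17.6% to 24.8%. On both shares the March male was the telogen library nearest the rest, at 4.63% and 17.6%. The remaining telogen libraries had 9.88% to 11.8% and 12.5% to 15.4%. The follicle's own markers were present throughout. The summed level of 4 measured inner root sheath markers was 3506 to 12115 in telogen and 12328 to 20753 in the other 8, that of 4 hair shaft keratins 204 to 651 against 710.3 to 1158, that of 5 basal keratinocyte markers 7239 to 9380 against 10144 to 16090, and that of 5 T cell markers 16.4 to 20.2 against 10.7 to 14.5. Within these lists KRT25, KRT27, KRT32 and KRT40 were lower in telogen without overlap, whereas KRT74, TCHH, KRT35 and KRT84 overlapped. KRT5 and KRT14 carried the basal sum. TP63 of the basal list was higher in telogen (360.68 to 595.56 against 183.97 to 297.1), and ITGA6 and COL17A1 overlapped. CD3D was the T cell marker whose groups were apart (10.33 to 12.3 against 6.14 to 8.17), and the other 4 overlapped. The summed levels of the other 8 marker lists, among them fibroblast, endothelial, melanocyte and myeloid markers, overlapped between telogen and the rest, and no marker measured was at 0 in all libraries. Single markers within these lists were apart in both directions. Examples are CD68 (6.81 to 10.8 in telogen against 3.16 to 5.03), MGST1 (285.05 to 512.52 against 126.27 to 266.22) and FABP5 (213 to 323.62 against 401.41 to 697.1). These values moved with the stage that the RRP-named genes also moved with, and their part in the result was not tested. How ribosomal RNA reads were treated in each library is not given in the sources used here. Removal of sequences by a ribosomal RNA name in the telogen libraries alone would lower genes that carry that name. All 8 members and RRNAD1 (described further on) carry it. The telogen means of the members ran from 8.51% of the rest for RRP7A to 95.1% for RRP8, with RRP15 at 50.4%. Whether such a removal was made is not known, it was not tested, and the telogen values below are to be read with that limit.

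RRP7A, a component of the small subunit processome, was the member with the lowest telogen level relative to the rest. Its value was 12.57 in the May female, 12.5 in the May male, 15.69 and 15.17 in the September female and male, 18.7 and 12.24 in November, and 14.62 and 14.55 in December. In telogen it was 1.08 in the February female, 0.98 in the February male, 0.94 in the March female and 1.94 in the March male. The groups did not overlap, and the telogen mean of 1.24 ± 0.474 (SD, n = 4) was 8.51% of the mean of 14.5 ± 2.15 (SD, n = 8) in the other libraries.

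RRP12, a HEAT-repeat protein that takes part in maturation and export of ribosomal subunits, had values of 1.17, 1.13, 1.73 and 2.04 in the February female, February male, March female and March male. In the other 8 libraries its lowest value was 12.45, its median 15.6 and its highest 16.93. Both February libraries were thus below both March libraries, and all 4 were far below the rest, at 9.99% of their mean.

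RRP36, needed for early cleavages of the precursor RNA, was at 5.03, 4.18, 4.35 and 3.5 in the 4 telogen libraries in the same order. In the other 8 libraries it ran from 23.21 to 28.81 with a median of 26.9. Unlike RRP12 it was lowest in the March male, and its telogen mean of 4.27 ± 0.628 (SD, n = 4) was 16.0% of that elsewhere. RRP9, a WD-repeat protein that binds the U3 small nucleolar RNA, was the member with the lowest level in every stage. It was at 0.76, 0.86, 0.6 and 1.37 in telogen and between 5.28 and 8.3, with a median of 6.63, in the other 8. Its telogen values did not overlap the rest, with the March male the highest of the 4, and their mean was 13.3% of that elsewhere.

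Among the members that act on the large subunit, RRP1, a nucleolar protein of the early precursor, was at 3.57, 4.04, 3.12 and 5.87 in the February female, February male, March female and March male. Elsewhere it was the member with the highest level, from 27.72 to 33.07 with a median of 29.4. RRP1B, its paralogue, was at 2.54, 2.67, 3.01 and 3.02 in telogen and from 10.23 to 15.18, with a median of 11.7, in the other libraries. The telogen mean was 13.97% of that elsewhere for RRP1 and 23.5% for RRP1B, and neither gene's groups overlapped. Paralogues can share reads. The submitters' processing notes name the program kallisto, and how many reads RRP1 and RRP1B shared is not given in the sources used here. RRP15, which is part of large subunit precursors, showed a smaller difference. Its telogen values were 7.56, 9.7, 7.15 and 8.48, and the other libraries ran from 14.47 to 19.08 with a median of 16.0. The groups were again apart, the telogen mean being 50.4% of the other.

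RRP8, a methyltransferase of ribosomal RNA that also takes part in silencing of ribosomal RNA genes, did not share the pattern. It was at 21.55 and 21.86 in the May female and male, 23.64 and 24.26 in September, 21.1 and 19.94 in November, 24.13 and 22.45 in December, 19.94 and 22.04 in February and 19.73 and 23.34 in March. The telogen values lay within or just below the range of the others. The telogen mean of 21.3 ± 1.73 (SD, n = 4) was 95.1% of the mean of 22.4 ± 1.55 (SD, n = 8) elsewhere, a log2 difference of -0.07.

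**Figure D1:**
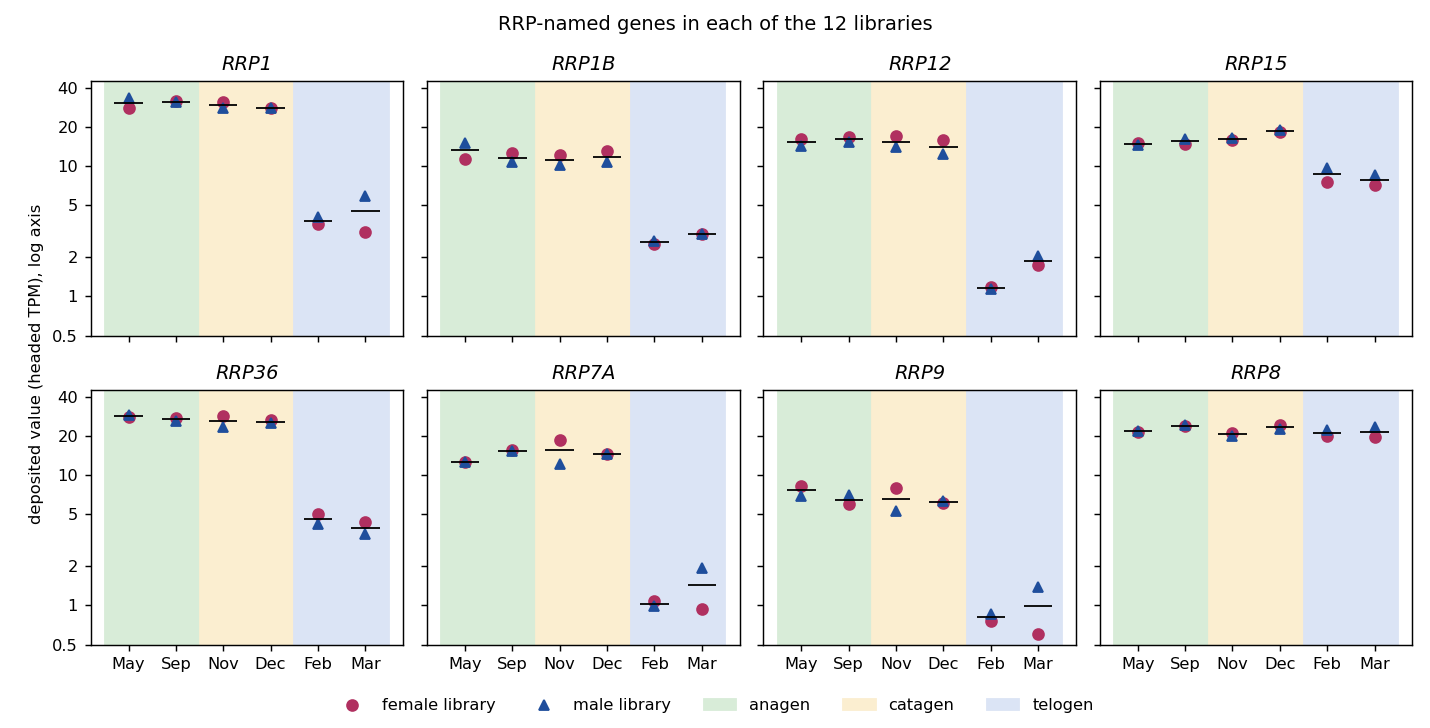
Each panel shows the deposited value (headed TPM, log axis) of 1 RRP-named gene by month, circles for the female and triangles for the male library, black bars for the mean of the pair and shading for the stage. The February and March values of 7 genes lie below all of their other values, whereas RRP8 stays between 19.73 and 24.26 in all 12 libraries.

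On the scale of log2(value + 1), on which later differences are given and which understates the change of low genes, telogen minus the other 8 libraries was -2.80 for RRP7A, -2.70 for RRP12, -2.60 for RRP1, -2.40 for RRP36, -2.03 for RRP9, -1.76 for RRP1B and -0.91 for RRP15. All 4 telogen values lay below all 8 others in 7 of the 8 members. The share of all tested genes with that arrangement was 12.8%, with 14.1% arranged the other way, and since the members were chosen on it the count has no weight of its own. By telogen mean as a share of the rest, RRP7A, RRP12, RRP9, RRP1, RRP36, RRP1B and RRP15 followed each other from lowest to highest, so that RRP1B and RRP15, both of the large subunit, had the smallest differences of the 7 and RRP1, also of the large subunit, lay among the others. RRP15 was the member just inside the rule, with its lowest other value 1.49 times its highest telogen value, and RRP8 lay outside, with that ratio at 0.854. For RRP7A the ratio was 6.31, for RRP12 6.10, for RRP1 4.72, for RRP36 4.61, for RRP9 3.85 and for RRP1B 3.39.

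The empty space between telogen and the rest was wide compared with that of other genes. Measured as the lowest of the 8 other libraries minus the highest telogen library, the gap was 2.17 on the log2 scale for RRP7A, 2.15 for RRP12, 2.06 for RRP1, 2.01 for RRP36, 1.48 for RRP1B and 1.41 for RRP9. Ranked by this gap, these 6 genes took places 1 to 6 of the 16095 tested genes. The next gene was RPL39, a protein of the large ribosomal subunit, with a gap of 1.36. Its telogen mean was 11.9% of that elsewhere, and its log2 difference of -2.96 was larger than that of any member. A gap of at least 1 was found in 11 genes in all, the 6 members among them. RRP15 was at place 129 with a gap of 0.53. Ranked by the difference of means the members were less extreme, with RRP7A at place 8 and RRP1B at place 60. Of 6395 tested genes whose mean in the other 8 libraries lay within the range of the members' means, 17 had a telogen mean of at most 25% of it, and 6 of these were RRP-named genes. These ranks use the contrast that chose the members and are a description.

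**Figure D2:**
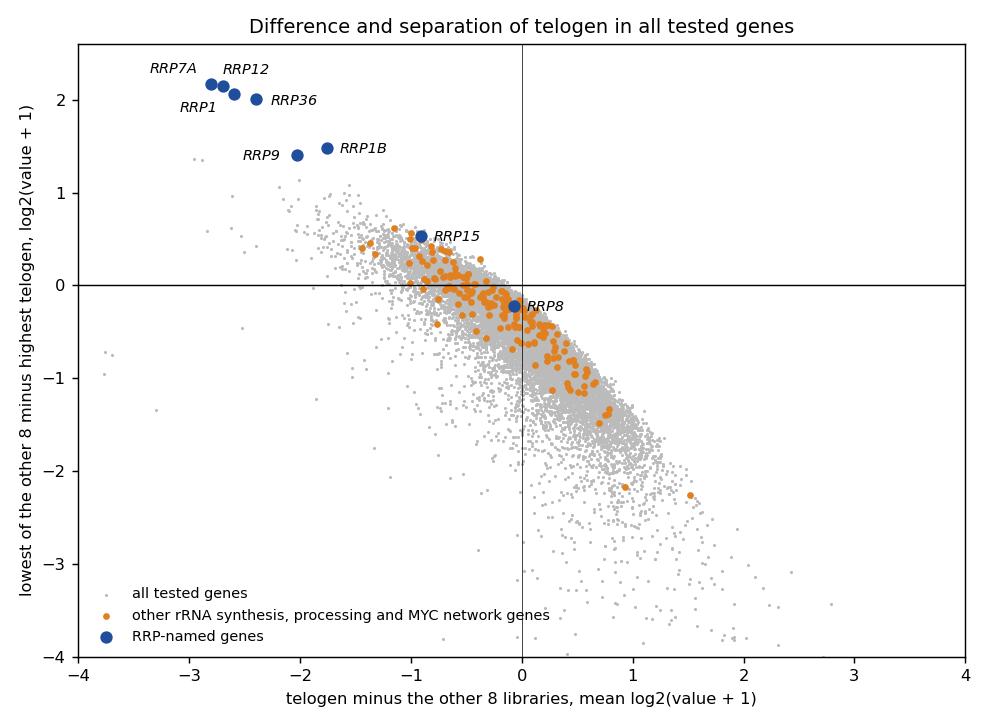
Every tested gene is plotted by telogen minus the other 8 libraries (x axis, mean log2 of value + 1) and by the lowest of the other 8 minus the highest telogen library (y axis, same scale); points above 0 on the y axis have no overlap, and 56 genes lie outside the axes. The members (blue) other than RRP8 and RRP15 sit above all other genes, and the genes of the related lists (orange) reach a gap of 0.62 at most.

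Within a library the ratio of 2 genes does not depend on how the library was scaled, and RRP8 served as the denominator. The ratio of RRP1 to RRP8 ran from 1.15 to 1.51 in the 8 anagen and catagen libraries and from 0.158 to 0.252 in telogen. For RRP36 it ran from 1.08 to 1.35 and from 0.150 to 0.252, and for RRP7A from 0.572 to 0.886 and from 0.0445 to 0.0831. The ratio of RRP15 to RRP8 went from 0.629 to 0.850 outside telogen and from 0.362 to 0.440 within it. In none of the 7 genes did the ranges of this ratio overlap, which shows unequal change and not which gene changed. The 7 genes and RRP8 were chosen on the same contrast, so this separation has no weight of its own. The summed level of the 7 genes was 109 to 131 in the 8 libraries and 20.9 to 26.2 in telogen.

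The order of the levels per transcript length therefore differed between the stages. In anagen and catagen together it was RRP1 (29.7 ± 2.18, SD, n = 8), RRP36 (26.7 ± 1.86), RRP8 (22.4 ± 1.55), RRP15 (16.3 ± 1.63), RRP12 (15.2 ± 1.53), RRP7A (14.5 ± 2.15), RRP1B (11.96 ± 1.62) and RRP9 (6.73 ± 1.01). Neighbours in this order overlapped in their ranges except RRP8 with RRP15 and RRP1B with RRP9. In telogen it was RRP8, RRP15 (8.22 ± 1.13, SD, n = 4), RRP36 (4.27 ± 0.628), RRP1 (4.15 ± 1.21), RRP1B (2.81 ± 0.243), RRP12 (1.52 ± 0.443), RRP7A (1.24 ± 0.474) and RRP9 (0.898 ± 0.333). RRP36 and RRP1, RRP12 and RRP7A, and RRP7A and RRP9 overlapped, and the other neighbours did not.

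Catagen was compared with anagen to see whether these genes change as growth ends, a contrast that did not choose the members. None of the 8 passed in limma at adjusted p under 0.05, against 0.0559% of all tested genes (9 of 16095, each lower in catagen), and none had an unadjusted p under 0.05. RRP15 was nearest, at 15.2 ± 0.727 (SD, n = 4) in anagen and 17.4 ± 1.48 in catagen, a log2 difference of 0.19 (SE 0.101, limma adjusted p = 0.369). RRP1 was at 30.8 ± 2.27 and 28.6 ± 1.63, a difference of -0.10 with a 95% interval from -0.39 to 0.19. RRP36 was at 27.6 ± 1.12 and 25.8 ± 2.16, a difference of -0.10 with an interval from -0.31 to 0.12. Over the 8 genes the differences ran from -0.13 for RRP9 to 0.19 for RRP15. The interval that reached highest was that of RRP7A, from -0.25 to 0.42. A change from anagen to catagen as large as the telogen differences of the 6 lowest members lies outside all of these intervals.

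Months within a stage were compared to see whether a member moves between early and late samples. September against May gave no call among the members, against 0.137% of tested genes (0.0311% higher and 0.106% lower). The largest difference was that of RRP7A, 0.28 with an interval from -0.21 to 0.77 (limma adjusted p = 0.706). Its values were 12.57 and 12.5 in May and 15.69 and 15.17 in September. All 4 measured skeletal muscle markers were higher in both May libraries, MYLPF at 63.26 and 63.32 against 0.87 and 0.77 in September. Their part in this contrast was not tested. December against November gave no call among the members or among all tested genes (0%), with 588 genes at an unadjusted p under 0.05 in limma and none of them a member. March against February, the contrast within telogen, called no member, against 0.00621% of tested genes. RRP12, at 1.17 and 1.13 in February and 1.73 and 2.04 in March, was higher by 0.42 (SE 0.157, unadjusted p = 0.0228, limma adjusted p = 0.988) and was the 1 member with an unadjusted p under 0.05 in any of these contrasts. RRP36 differed by -0.19 and RRP15 by -0.12, and the other 5 members by 0.03 to 0.23. Leaving out the March male turned the differences of RRP1 to -0.22, of RRP9 to -0.18, of RRP8 to -0.08 and of RRP7A to -0.07. With 2 libraries in each month the intervals were wide, and those of RRP9 were the widest. Its intervals had the same width in each contrast of months, because the spread was estimated over all 12 libraries and not within telogen. For March against February the interval ran from -0.39 to 0.60. The telogen values of RRP9 were 0.6 to 1.37, where log2(value + 1) understates change.

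Male and female were compared over the 6 months with month as a block. No member passed, against 0.0559% of tested genes (0.0435% higher in the male and 0.0124% lower). RRP36 was lower in the male in 5 months and higher in 1 of 6, with a difference of -0.14 and an interval from -0.30 to 0.02 (limma adjusted p = 0.693). RRP12 and RRP7A were also higher in the male in 1 of 6 months, and RRP15 in 5 of 6 (difference 0.12, interval -0.05 to 0.28). A change with sex of the size seen for the 6 lowest members in telogen lies outside all 8 intervals, which reached from -0.32 to 0.42 at most.

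**Figure D3:**
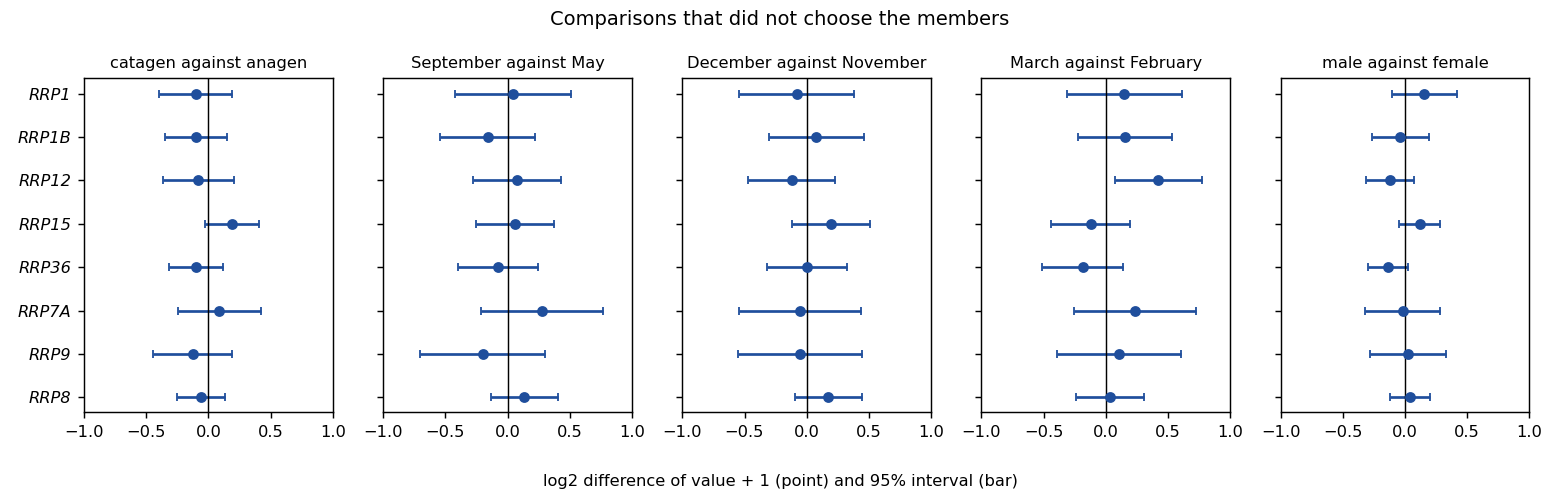
Points are log2 differences of value + 1 for the 8 RRP-named genes in the 5 contrasts that did not choose them, and bars are 95% intervals from the limma fit. All intervals include 0 apart from that of RRP12 for March against February, 0.07 to 0.77, whose adjusted p was 0.988.

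Across all 12 libraries the 7 genes without RRP8 were correlated with one another on the log2 scale, with Pearson's r from 0.924 to 0.993 in 21 pairs, and RRP8 with each of them at 0.310 to 0.437. These values share the split of telogen from the rest. Among the 8 anagen and catagen libraries alone the 21 pairs ran from -0.69 to 0.753, with a median of 0.264. RRP9 with RRP36 (r = 0.753), RRP1B with RRP36 (0.713) and RRP1 with RRP1B (0.624) were the highest there. RRP15 went the other way, with r of -0.69 to RRP1, -0.59 to RRP36 and -0.51 to RRP12 over these 8 libraries. These are descriptions over libraries that also share month and sex.

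Outside the members, the genes most like their mean profile, among those with a mean of at least 5 and a named symbol, were RABGGTB (r = 0.978 over 12 libraries), ACYP1 (0.977), SCP2 (0.976), MTCL1 (0.976), CNBP (0.975), PCMT1 (0.974), DPM1 (0.974), RRNAD1 (0.972), TM9SF2 (0.972) and CREBZF (0.971). Their r values also share the split of telogen from the rest, and Spearman's coefficient named other genes, with SDHAF1 first (0.986). The telogen differences of the genes named by Pearson's r ran from -0.45 for TM9SF2 to -1.62 for RRNAD1. Those of RRNAD1, ACYP1 (-1.56), DPM1 (-1.22), RABGGTB (-1.11) and SCP2 (-0.96) were larger than that of RRP15, and none was as large as the -1.76 of RRP1B. RRNAD1, whose full name begins with ribosomal RNA like those of the members, was at 2.26, 1.88, 1.96 and 2.85 in telogen and between 6 and 10.46 in the other 8 libraries, without overlap. Its telogen mean was 2.24 against 8.995 elsewhere, which is 24.9%. Of 16 symbols that begin with RR outside the members, 2 (RRNAD1 and RRS1) had all telogen values below the others. That was near the 12.8% of all tested genes, and the median difference of the 16 was 0.12. RRN3, a factor of RNA polymerase I, was at 31.6 in telogen and 29.7 elsewhere. This look at symbols was made after the values were seen. The genes most like RRP8 were GPSM2 (r = 0.843), CRTAC1 (0.823), TFB2M (0.814), ZNF852 (0.792) and MYO5C (0.782).

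No other gene of ribosome synthesis in the lists below had a telogen mean as low, relative to the rest, as the 6 lowest members, but several had larger differences than the -0.91 of RRP15, among them EXOSC5 (-1.44), SURF6 (-1.37) and WDR74 (-1.32). Of 59 genes of the small subunit processome and small subunit maturation, 25 fell and 10 rose in telogen against the other 8 libraries, with a median difference of -0.14, where 24% of all tested genes fell and 31.2% rose (55.2% in all, limma adjusted p under 0.05) and the median was 0.08. EMG1, a methyltransferase of the small subunit RNA, fell by 0.44 and NOL7 by 0.46, whereas UTP23 rose by 0.78 and NOC4L by 1.52. Of 58 large subunit assembly genes 29 fell and 11 rose (median -0.22). EIF6, which keeps the subunits apart, fell by 0.65 and GLTSCR2 by 0.80, and SBDS, which helps to release EIF6, rose by 0.47 and GTPBP4 by 0.48. The lowest difference in these lists was -1.37, that of SURF6, and no gene of them had a gap above 0.49, while RRP7A, RRP12, RRP1 and RRP36 each had one of over 2.

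For the lists that follow, the shares of all tested genes were again 24% that fell and 31.2% that rose. Of 18 genes of the small nucleolar ribonucleoproteins, which modify ribosomal RNA, 7 fell and 4 rose. FBL, the methyltransferase of that complex, was at -0.54 and NOP10 at 0.93. NOP56 fell by 0.26 (limma adjusted p = 0.0247). That call was lost without the February female, the March female or both March libraries, and under each rescaling of the libraries, with adjusted p up to 0.143. SNU13 rose by 0.64. RRP9 binds the same U3 RNA that this complex holds and was lower by 2.03. Of 17 genes of the RNA exosome, the nuclease that trims precursors, 5 fell and 6 rose, near the shares of all tested genes. EXOSC7 was at -1.15, EXOSC4 at -1.01, EXOSC9 at 0.59 and XRN2 at 0.29. Of 23 genes of RNA polymerase I and its factors 13 fell and 2 rose: POLR2L, a subunit shared by the polymerases, fell by 0.77, TAF1B rose by 0.48 and NCL, which codes for nucleolin, by 0.30. POLR2F fell by 0.31 (limma adjusted p = 0.0253) and lost that call without the February female or March female and under each rescaling, with adjusted p up to 0.0932. In the network of MYC, a transcription factor that drives ribosome synthesis, 4 of 10 genes rose and 3 fell, also near the shares of all tested genes. MYC itself rose by 0.70 and MAX by 0.78, and MXD4 fell by 0.90 and MYCN by 0.53. Over the lists together 82 of 184 genes fell and 37 rose, and the median difference was -0.16.

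A closer comparison was with 13 goat genes whose yeast counterparts are also named Rrp but which carry other symbols, a set put together after the telogen values were known and given as a description. EXOSC10 is the counterpart of yeast Rrp6, DIS3 of Rrp44, DDX47 of Rrp3 and PDCD11 of Rrp5. Telogen means were 35.1% to 153% of those elsewhere, with a log2 median of -0.15, and 5 of the 13 had all telogen values below the others, an arrangement found in 12.8% of all tested genes. SURF6, the counterpart of Rrp14, was at 35.1%, EXOSC5 at 35.7% and PDCD11 at 72.8%, while DDX47 was at 112%, DIS3 at 122% and EXOSC10 at 139%. None was as low as the 23.5% of RRP1B.

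**Figure D4:**
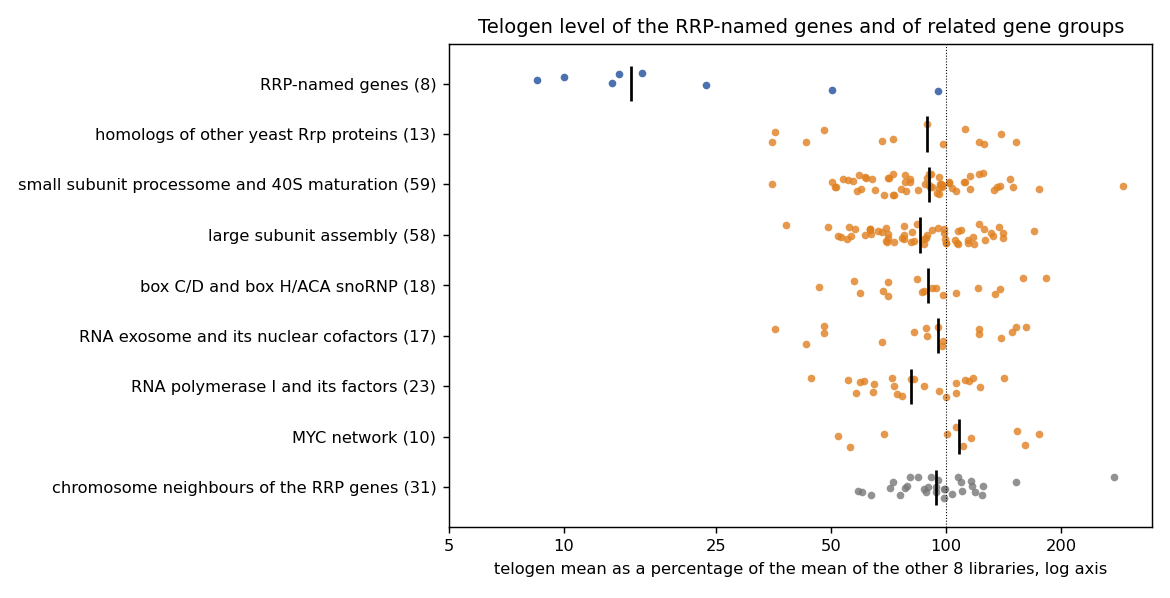
Each point is 1 gene, placed by its telogen mean as a percentage of its mean in the other 8 libraries (log axis), with group sizes in brackets, black bars at group medians and a vertical spread that has no meaning. Among the RRP-named genes 6 lie between 8.51% and 23.5%, and no gene of the other groups is below 35.1%. Ribosomal protein genes form no group here, and RPL39, 1 of them, was at 11.9%.

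The genes that neighbour each member on the chromosomes of RefSeq assembly ARS1.2 had smaller differences than the 6 lowest members. The authors' build is not given in the sources used here, so the assembly serves only for which genes adjoin. Of 31 tested neighbours, up to 2 on each side, 4 had all telogen values below the others, near the 12.8% of all tested genes. Differences of the 31 ran from -0.74 to 0.58 with a median of -0.05. RRP7A lies between SERHL2 (-0.30) and POLDIP3 (-0.02), RRP12 between PGAM1 (-0.45) and FRAT2 (-0.08), and RRP36 between CUL7 (-0.63) and KLHDC3 (-0.30). The files list genes by their value in the May female, so that adjacent rows share that level. Of the 16 genes in rows adjoining a member, 2 had telogen values below all others, also near that 12.8%. The median difference of these 16 genes was 0.17. Beside RRP7A these were IL10RB (0.14) and UBE2J1 (1.08), beside RRP12 IKBKAP (-0.04) and RHBDD3 (-0.65), beside RRP36 BNC1 (0.20) and GAS2L1 (-0.41), and beside RRP1 EPB41 (0.33) and RASAL2 (0.14). Beside RRP9 they were PAPD5 (0.23) and PPP2R3B (-0.65), beside RRP1B LOC102181985 (0.20) and GHR (0.38), beside RRP15 EXOC6 (0.49) and RB1 (0.59), and beside RRP8 AGO2 (-0.13) and TSNAX (-0.67). In the files of both May libraries and all 4 telogen libraries 26 other gene symbols had been turned into dates, and in the remaining 6 files they had not. The May values of the RRP-named genes lay with those of September, November and December. Whether the handling of the symbols bears on any value was not tested.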

How the data were processed

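The signal values, 1 per gene and library, were deposited by the authors under the heading TPM, per the file headers. Library sums differ, so a rescaling step that is not described had been applied. Kallisto 0.46.1 and sleuth 0.30.0 are named in the submitters' processing notes, and RNA was extracted with RNAiso Plus per the labels' protocols. Rows were matched by symbol, and all 8 gene IDs carry the same symbol in RefSeq. The design had foreseen limma for normalized values, and this was used: log2(value + 1), genes that reached 1 in 2 or more libraries, 1 group per stage or per month over all 12 libraries, month as a block for sex, moderated variances with a trend (limma 3.58.1, R 4.3.3), Benjamini-Hochberg adjustment over all 16095 tested genes, threshold 0.05. The fit was tested on simulated data. No interval or detection floor can be given for single values without read depth.

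The members and lists were chosen with earlier results of these data known. Named genes were all members, the 2 highest called genes per list and direction in telogen, the 10 genes most like the members' mean profile and 5 most like RRP8, and genes in adjoining rows; RRS1, RRN3, RPL39, SURF6, EXOSC5, WDR74, the chromosomal neighbours and the yeast counterparts were named after their values were seen. Of 187 list genes 184 were measured, 7 of them sought under older symbols. Alternatives were 0.1 or 5 added, no filter, equal library sums, equal sums without mitochondrial and ribosomal protein transcripts, quantile normalization, each library left out and the replicate number as a block. Sequences are not shown.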

Additional observations from a re-analysis of the deposited data

Results flagged for a closer look

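In each stage of 4 libraries, 24 groups of values of the RRP-named genes were searched for a library far from the others, and chance alone gives about 1 in 20. RRP1 in catagen was at 31.05 in the November female and at 27.75 to 27.85 in the other 3 libraries. RRP7A in telogen was at 1.94 in the March male and at 0.94 to 1.08 in the others. The March male also had the lowest mitochondrial share of the telogen libraries, 4.63%. The effect of sex was not called as differing between stages for any member (limma F test of the interaction, adjusted p of at least 0.653). Of all 16095 tested genes 1 was called in that test.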

How the results depend on the processing

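The 7 genes with all telogen values below the others were the same 7 in all 21 settings, and RRP8 overlapped in each. The size depended on the constant: RRP7A was at -3.50 with 0.1 added and -1.64 with 5, RRP9 at -2.82 and -0.99, and RRP36 at -2.63 and -1.77. Rescaling kept RRP7A between -2.96 and -2.75, and without both March libraries, a check chosen after seeing the data, RRP12 was at -2.91. No member was called in the other 5 contrasts under any alternative (lowest adjusted p 0.243), but uncalled differences turned sign, and the cause was not tested. With equal sums September against May was -0.1387 for RRP1, -0.0450 for RRP8, -0.1012 for RRP12 and -0.1146 for RRP15. With equal sums without mitochondrial and ribosomal protein transcripts it was -0.0664 for RRP1, -0.0312 for RRP12 and -0.0448 for RRP15. The median of all genes moved to -0.17 and -0.10 there. March against February became 0.0286 and 0.0062 for RRP15 (medians 0.14 and 0.12), and the telogen median moved from 0.08 to 0.13 and 0.14. Male against female became, for RRP7A, 0.0289 with 0.1 added, 0.0044 with equal sums and 0.0303 without those transcripts, and for RRP9 -0.0210 with 5 added and -0.0390 with quantile normalization.

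With a library left out, catagen against anagen ran from -0.0147 to 0.1764 for RRP7A. September against May ran from -0.0789 to 0.1676 for RRP1, from -0.3596 to 0.0395 for RRP1B and from -0.0015 to 0.1537 for RRP12. December against November ran from -0.0491 to 0.2035 for RRP1B, from -0.3380 to 0.2353 for RRP7A, from -0.3072 to 0.1991 for RRP9, from -0.2817 to 0.0383 for RRP12 and from -0.1353 to 0.1445 for RRP36. March against February ran from -0.2202 to 0.5175 for RRP1, from -0.0650 to 0.5348 for RRP7A, from -0.0835 to 0.1481 for RRP8, from -0.1774 to 0.3894 for RRP9 and from -0.2837 to 0.0382 for RRP15. Male against female ran from -0.1259 to 0.0044 for RRP1B, from -0.1408 to 0.0938 for RRP7A and from -0.0851 to 0.1295 for RRP9. A library left alone in its month was assumed to vary like the others.

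Calls over all genes for catagen against anagen, 9, were 4 in a fit of the 8 anagen and catagen libraries, chosen after seeing the data, and 3 to 13 with a library left out (3 without the September or December female, 4 without the May or December male, 5 without the February or March male). For September against May, 22 became 12 with 0.1 added and 11 to 33 with a library left out (12 without the May male or September female, 11 without the September male). March against February gave 0 in place of 1 with either form of equal sums and 0 to 12 with a library left out (12 without the March female). December against November gave 0 to 3 (3 when the December female was left out and 1 for the male). Telogen gave 7638 to 9042 and male against female 6 to 8. Spearman's coefficient named 0 of the same 10 genes for the mean profile and 2 of the same 5 for RRP8. Deviations of libraries with the same replicate number, which marks sex, correlated at -0.26 to 0.44 between months, over 0.1 in 9 of 15 pairs, so no consistent pairing was established. With the replicate block no member was called (0), and all genes gave 8973 calls for telogen, 9 for catagen against anagen, 21 for September against May and 1 for March against February. With stage in place of month and no replicate block, male against female gave 11. Depth is unknown.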
